A study of Mus musculus with 3 samples.

Results

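Molecular chaperones help proteins to fold and keep unfolded proteins from aggregating, and their genes are described here in a mouse embryonic stem (ES) cell line. The members are the heat shock proteins, the J proteins that assist HSP70, the cytosolic chaperonin CCT with prefoldin, the BAG proteins and other cochaperones, and the heat shock factors. The rule that chose them matches gene symbols, over probe sets with 1 symbol in the platform annotation, and has no term for a measured value. The rule found 99 genes among 19057, read by 108 of 26730 probe sets. All 3 samples are biological repeats of the R1 line (strain 129), and their total RNA was read on the Mouse Gene 1.0 ST array of Affymetrix. No treatment, heat shock or second condition is named in the labels, so the values show which chaperone genes gave signal and how far the repeats differed. How the cultures were kept is not given in the sources used here, and that the repeats came from separate cultures rests on the word biological in the study's design.

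Values are log2 intensity of a gene, averaged over its probe sets, and are given for repeats 1, 2 and 3 in that order. The strength of a signal depends on the probes, so a gene is compared with itself between repeats and with the background, not with another gene. The background cutoff on an array was the 95th percentile of its values for 1184 genes of olfactory and vomeronasal receptors, at 4.72, 4.60 and 4.60. A second, higher cutoff came from 131 genes of other families silent in most tissues, at 6.03, 5.97 and 5.93. Signal between these cutoffs is called near background. The ES cell markers Pou5f1, Sox2 and Nanog were above both on all 3 arrays, as were all 7 measured of 8 listed. Of 11 measured fibroblast markers 9 were above background on all arrays (Lum on none, S100a4 on 2), and the summed intensity was 1582, 2396 and 1617, highest in repeat 2. Of 4 measured haematopoietic markers 1 was above background, Cd3e at 5.50 ± 0.18 (SD, n = 3), and near it, while Ptprc was below it on all arrays. The arrays' median intensities were 47.8, 46.7 and 46.8. With 3 arrays, their number limits how precise any value is.

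As background, HSP70 binds and releases short exposed stretches of a protein in a cycle driven by ATP. J proteins deliver clients and trigger the hydrolysis of ATP. Nucleotide exchange factors, such as several BAG proteins and the HSP110 proteins, reset the cycle. HSP90 takes over partly folded clients from HSP70, while the CCT ring encloses proteins such as actin and tubulin that prefoldin hands over. Heat shock factors bind repeated units of the letters GAA, in alternating orientation, called heat shock elements, and raise transcription of many of these genes under stress.

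The promoters of 82 of the 99 members were found in RefSeq (build GRCm38.p6), each as a window of 300 bases from 250 before to 50 after an annotated start. A pair of units in opposite orientation reads GAANNTTC (form 1) or TTCNNGAA (form 2), and each reads the same on both strands. Either form was found in 21 of these members (25.6%), against 17.0% of all 27025 genes with a promoter window and 15.1% of all 32851 windows. Form 1 was in 16 members (19.5%), against 9.04% of genes and 7.86% of windows. Form 2 was in 9 members (11.0%), against 9.60% of genes and 8.52% of windows. Overlapping pairs of both forms that make at least 3 units in a row were read on both strands and counted within each form as well. They were in 4 members (4.88%), namely Dnajb6, Hspd1, Hspe1 and Hsph1, against 0.662% of genes and 0.603% of windows. Hspd1 and Hspe1 share 1 such stretch, which holds more than 3 units. All counts are of letter matches, with no test and no measure of binding.

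The stretches below are shown because they hold such pairs before the start of members described below, with the matching letters in capitals.
Hspe1, chr1:55088019-55088116, plus strand: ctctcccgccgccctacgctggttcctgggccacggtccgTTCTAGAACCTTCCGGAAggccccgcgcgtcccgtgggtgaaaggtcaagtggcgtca
Dnajb6, chr5:29735812-29735897, plus strand: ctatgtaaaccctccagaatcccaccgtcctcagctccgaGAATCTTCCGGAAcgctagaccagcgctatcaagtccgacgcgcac
Hspb1, chr5:135887762-135887849, plus strand: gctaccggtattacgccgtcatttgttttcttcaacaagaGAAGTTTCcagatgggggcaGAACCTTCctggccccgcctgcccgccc
Hspa1a, chr17:34972213-34972300, minus strand: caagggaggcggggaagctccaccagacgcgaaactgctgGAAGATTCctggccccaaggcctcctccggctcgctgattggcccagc
Cct2, chr10:117063376-117063457, minus strand: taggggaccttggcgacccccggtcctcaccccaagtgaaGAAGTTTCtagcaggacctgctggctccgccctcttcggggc
Hspe1 and Hspd1 are next to each other and transcribed apart from a shared stretch, so the 18 capital letters shown for Hspe1 are also those of Hspd1 on the other strand. Counted from the start, they lie at -89 to -72 for Hspe1 and at -144 to -127 for Hspd1. The pairs of Hspb1 begin at -117 and -97, that of Hspa1a at -104 and that of Cct2 at -42. In Hsph1 the overlapping pairs lie after the start and are not printed.

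**Figure D1:**
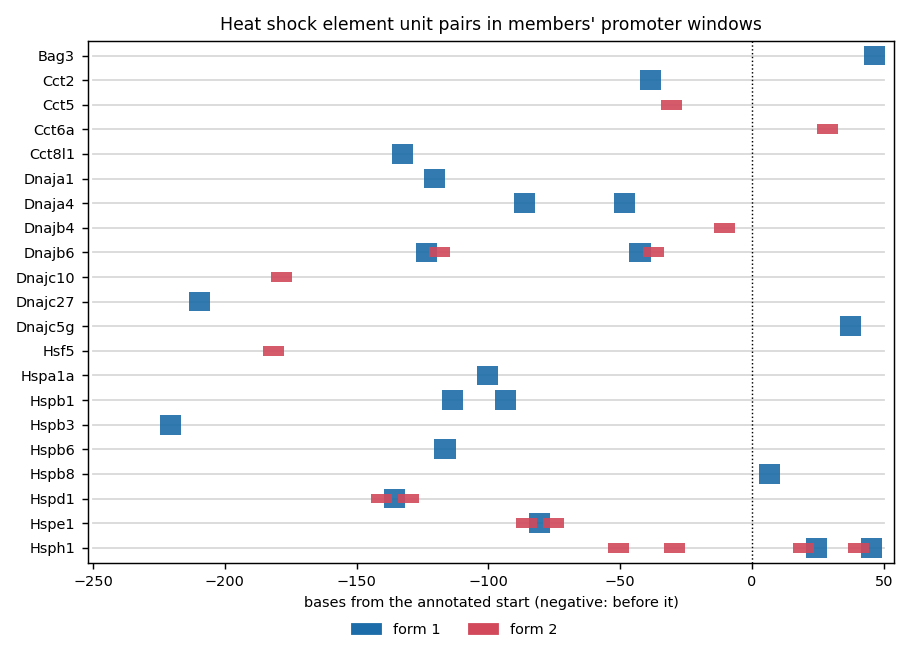
Positions of unit pairs of form 1 (blue, tall) and form 2 (red, short) in the promoter windows of the 21 members that hold any, in bases from the annotated start (dotted line); a gene with several starts shows the same letters once per start. Overlapping boxes in Dnajb6, Hspd1, Hspe1 and Hsph1 are the matches of at least 3 units.

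Most chaperone genes gave signal. Of the 99 members 88 lay above background on all 3 arrays (88.9%), against 71.6% of all 17873 genes outside the receptor families. Of the rest, 10 were above background on no array and 1, Hspb7, on 2 arrays. Above the higher cutoff on all 3 arrays were 69 members (69.7%), against 46.6% of genes outside both sets of silent families. By role this share was 37.5% for small heat shock proteins, below that of all genes, and near it for several roles. It was 50% for the 4 genes grouped as HSF, 52.9% for J proteins of classes A and B and 53.8% for HSP70 and HSP110. In the HSF group Hsf2 passed, and so did Hsf2bp, which is grouped there by its symbol. Hsf4 and Hsf5 did not pass. Class C J proteins had 77.8%, CCT 80%, BAG 83.3%, and the remaining roles 100%. No test of these shares was made.

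The 2 HSP90 genes with a value and 5 genes grouped as HSP90 and HSP70 cochaperones exceeded both cutoffs on every array. Hsp90ab1, another HSP90 gene, had no probe set with 1 symbol and was not read here. Hsp90aa1, the stress-inducible cytosolic HSP90, read 12.54, 12.64 and 12.58 (12.58 ± 0.054, SD, n = 3). Hsp90b1, the HSP90 of the endoplasmic reticulum (ER), read 11.31, 11.36 and 11.32. Both were highest in repeat 2, by 0.086 and 0.039 over the mean of the other repeats. Stip1 links HSP70 to HSP90 and read 10.83, 10.93 and 10.91. Ahsa1 stimulates the ATPase of HSP90 and read 9.91, 9.91 and 9.98, while its relative Ahsa2 read 6.65, 6.64 and 6.81. Hspbp1, an exchange factor of HSP70, varied little, at 7.59, 7.69 and 7.68. Hspbap1, a protein that associates with Hspb1, had the largest range of these 5 genes, at 8.85, 8.999 and 9.13. All 5 genes of this group exceeded the higher cutoff on every array.

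**Figure D2:**
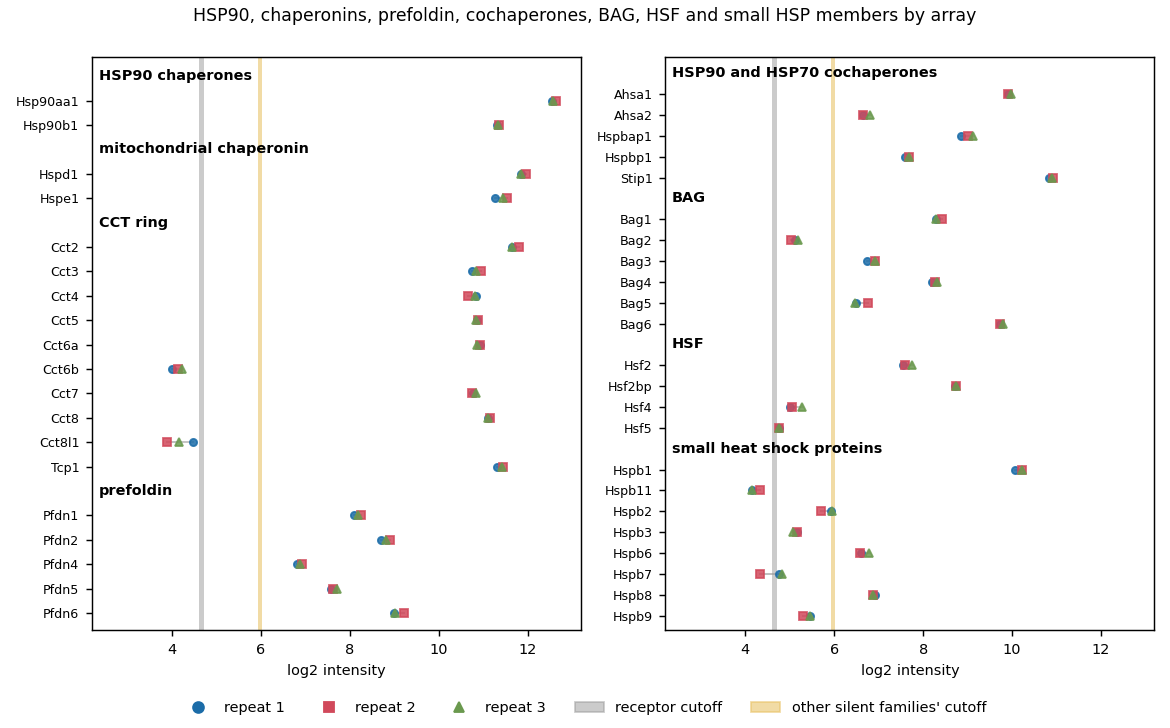
Log2 intensity on each array for HSP90, chaperonin, prefoldin, cochaperone, BAG, HSF and small HSP members (points: repeats; bands: span over the arrays of the receptor cutoff and the higher cutoff). The 8 main CCT genes lie near the right edge on all arrays, while Cct6b and Cct8l1 lie left of the receptor cutoff; heights of different genes are not comparable.

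Of 13 HSP70 and HSP110 genes 11 were above background and 7 exceeded the higher cutoff on all arrays. Hspa8, the constitutive cytosolic HSP70, read 12.38, 12.60 and 12.43 (12.47 ± 0.12, SD, n = 3), Hspa5 (BiP of the ER) 11.40, 11.47 and 11.26, and Hspa9 (mortalin of mitochondria) 11.54, 11.63 and 11.47. Each was highest in repeat 2. The stress-inducible Hspa1a read 6.06, 6.03 and 5.76, which exceeds the higher cutoff in repeats 1 and 2 but not in repeat 3. Hspa1a has a near-identical copy in the genome, so its signal may not be its own. Hspa2, known for its part in sperm formation, read 5.76, 5.72 and 5.51, near background on all arrays. Its testis-expressed relative Hspa1l was below background at 4.18, 4.13 and 4.14.

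Hspa4, Hspa4l and Hsph1 are exchange factors of the HSP110 branch. Hspa4 read 11.05, 11.005 and 10.98, the smallest range of the HSP70 family above background (0.077). Hsph1, itself induced by heat, read 10.01, 9.95 and 9.73 and was lowest in repeat 3. Hspa4l was near background, at 5.55, 5.70 and 5.48. Hspa14, which works at the ribosome, read 9.01, 9.15 and 9.21, and Hspa13, an ER-associated member, 7.43, 7.64 and 7.46. Of the atypical members, Hspa12a was near background at 4.95, 5.10 and 4.80 and Hspa12b below it at 4.37, 4.28 and 4.45. The largest range among the 11 genes above background was that of Hspa1a, 0.298, a 1.23-fold difference.

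Hspa8 shows how the choice of probe set bears on a spread. Its 3 probe sets had ranges of 0.49, 0.11 and 0.10 over the repeats. The first read 11.76, 12.25 and 11.95, with repeat 2 higher by 0.39 than the mean of the others, and the remaining probe sets put repeat 2 higher by 0.10 and 0.092. All 3 placed repeat 2 highest, but by different amounts. Of the other 6 members with several probe sets, Dnajc3 had a pair with identical values. The probe sets of Hsp90aa1, Hspb1, Hspd1, Hspe1 and Dnaja1 had ranges from 0.081 (Hspd1) to 0.35 (Hspe1).

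The mitochondrial chaperonin was above both cutoffs on all arrays. Hspd1 (HSP60), the ring that folds imported proteins, read 11.86, 11.97 and 11.84, and its lid Hspe1 (HSP10) read 11.25, 11.54 and 11.44. Both were highest in repeat 2, while repeat 1 was lowest for Hspe1 and repeat 3 for Hspd1. The range of Hspe1 was 0.29, a 1.22-fold difference.

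Small heat shock proteins, which hold unfolded proteins without ATP, were above the higher cutoff in 3 of 8 cases. Hspb1 (HSP25) was one, at 10.08, 10.23 and 10.22 (10.18 ± 0.087, SD, n = 3), and both of its probe sets were lowest in repeat 1. Hspb8, the partner of Bag3 in clearing aggregates, read 6.91, 6.87 and 6.86, and Hspb6, known from muscle, 6.60, 6.57 and 6.79. Near background were Hspb3 at 5.17, 5.16 and 5.07 and Hspb9 at 5.46, 5.30 and 5.46. So was Hspb2 in repeats 1 and 2, at 5.92 and 5.69, while its 5.94 in repeat 3 was just above the higher cutoff. Hspb7, known from heart, read 4.76, 4.33 and 4.82 and fell below the cutoff in repeat 2. Hspb11, a subunit of ciliary transport and not a typical chaperone, was below background at 4.15, 4.32 and 4.14. Hspb2 is next to Cryab, another small heat shock protein gene, which read 6.31, 6.25 and 6.55; both were lowest in repeat 2.

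J proteins of classes A and B include the main partners of HSP70 in the cytosol. Of 17 genes 15 were above background and 9 above the higher cutoff. Dnaja1 read 9.01, 9.06 and 9.02 as the mean of 2 probe sets that differed in level, one at 7.88, 7.95 and 7.97 and the other at 10.14, 10.17 and 10.06. Repeat 3 was highest in the first and lowest in the second, and by the higher probe set alone the mean of Dnaja1 was 10.12. Dnaja2 read 9.76, 9.88 and 9.67. The heat-inducible Dnajb1 (HSP40) read 7.89, 7.98 and 7.84 (7.90 ± 0.074, SD, n = 3). The largest range of these was that of Dnaja2, 0.21. In organelles, Dnaja3 of mitochondria read 8.32, 8.57 and 8.40 and the ER member Dnajb11 8.40, 8.59 and 8.33. Dnajb9, an ER member induced by unfolded proteins, had the smallest range of these classes, at 7.70, 7.73 and 7.73. Dnajb6, a suppressor of aggregation whose promoter is printed above, was almost as even, at 7.46, 7.50 and 7.47.

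The least even J protein was Dnajb4, at 5.27, 5.79 and 5.43, near background on all arrays and higher in repeat 2 by 0.44. It was the only member above background on all arrays whose range exceeded 0.5, against 4.46% of all genes above background. Dnaja4, Dnajb2, Dnajb8, Dnajb13 and Dnajb14 were also near background, with means from 4.81 (Dnajb2) to 5.75 (Dnaja4). Dnajb3 at 3.34, 3.32 and 3.41 and Dnajb7 at 2.62, 2.74 and 2.82 were below it. Dnajb5 and Dnajb12 read 6.39 ± 0.078 and 6.78 ± 0.025 (SD, n = 3), above the higher cutoff on all arrays.

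**Figure D3:**
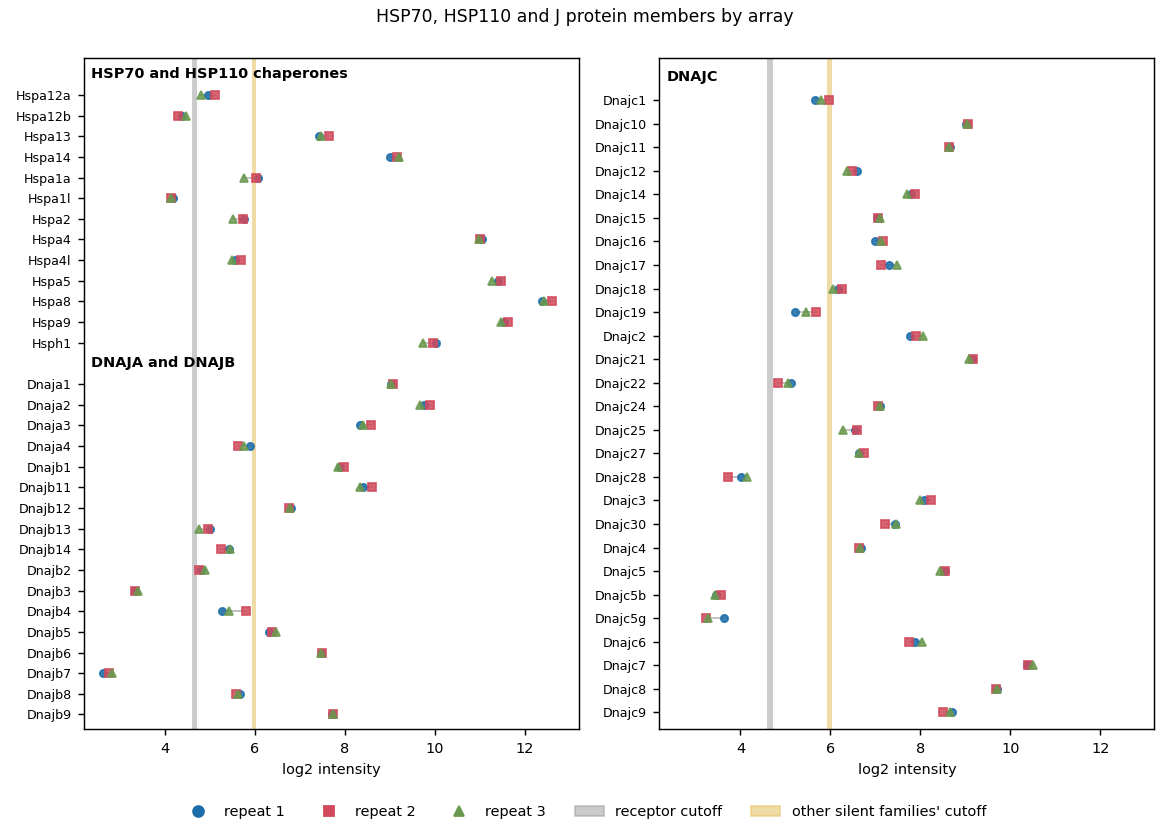
Log2 intensity on each array for HSP70, HSP110 and J protein members (points: repeats; bands: span over the arrays of the receptor cutoff and the higher cutoff). Hspa1l, Hspa12b, Dnajb3, Dnajb7, Dnajc5b, Dnajc5g and Dnajc28 lie left of the receptor cutoff on all arrays; heights of different genes are not comparable.

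Class C J proteins put the J domain to many uses, and 24 of 27 were above background and 21 above the higher cutoff. Dnajc7, which binds HSP70 and HSP90, read 10.36, 10.40 and 10.49. Dnajc8, which takes part in splicing, had the smallest range of the class, at 9.70, 9.69 and 9.70. Dnajc9, a histone chaperone, read 8.70, 8.50 and 8.66, and was lowest in repeat 2. Members tied to the ribosome, Dnajc2 and Dnajc21, read 7.91 ± 0.15 and 9.13 ± 0.054 (SD, n = 3). The ER members Dnajc3 and Dnajc10 read 8.09 ± 0.13 and 9.03 ± 0.021, and Dnajc1, of the ER membrane, was near background at 5.80 ± 0.16. Of the mitochondrial members, Dnajc11 read 8.64 ± 0.011, Dnajc15 7.07 ± 0.040 and Dnajc30 7.37 ± 0.14. Dnajc19, of the mitochondrial import motor, read 5.22, 5.68 and 5.45, the largest range of the class above background (0.46), and was near background.

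Dnajc5, a vesicle protein of synapses, read 8.54, 8.54 and 8.43, and Dnajc6 (auxilin), which uncoats clathrin vesicles, 7.87, 7.76 and 8.04. The relatives Dnajc5b, at 3.45, 3.57 and 3.44, and Dnajc5g, at 3.63, 3.24 and 3.28, were below background, as was Dnajc28 at 4.02, 3.72 and 4.15. Dnajc22 was near it, at 5.12, 4.83 and 5.06. The splicing-related Dnajc17 read 7.30, 7.12 and 7.49, low in repeat 2 and high in repeat 3. Dnajc25 read 6.55, 6.59 and 6.27, lower in repeat 3 than in the others. The remaining class C genes, Dnajc4, Dnajc12, Dnajc14, Dnajc16, Dnajc18, Dnajc24 and Dnajc27, were above the higher cutoff, with means from 6.15 (Dnajc18) to 7.79 (Dnajc14).

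The CCT ring is built of 8 different subunits, and the genes of all 8 exceeded both cutoffs on every array. Tcp1 (subunit 1) read 11.30, 11.44 and 11.43, Cct2 11.65, 11.79 and 11.64, and Cct3 10.76, 10.96 and 10.84. Cct4 read 10.83, 10.66 and 10.81 and was lowest in repeat 2, unlike Cct2 and Cct3, which were highest there. Cct5 read 10.87, 10.89 and 10.83, Cct6a 10.94, 10.94 and 10.87, Cct7 10.77, 10.74 and 10.84, and Cct8 11.10, 11.15 and 11.12. Cct8 had the smallest range (0.052) and Cct3 the largest (0.20) of the subunits. Cct6b, the testis form of subunit 6, was below background at 3.998, 4.14 and 4.23, and so was Cct8l1, a gene resembling Cct8, at 4.48, 3.89 and 4.16. Values below background carry no order between repeats.

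All 5 measured prefoldin genes exceeded the higher cutoff on every array. Pfdn1 read 8.09, 8.25 and 8.19, Pfdn2 8.71, 8.91 and 8.81, and Pfdn4 6.81, 6.93 and 6.88. Pfdn5, also known as a binder of Myc, read 7.58, 7.63 and 7.71, and Pfdn6 8.99, 9.21 and 9.02. Repeat 1 was lowest for all 5, with deviations from the mean of the other repeats of -0.15 to -0.093. It was lowest for 33.3% of all genes above background and for 39.5% of those above the higher cutoff. Repeat 1 was lowest for 3 of the 5 after quantile normalization (28.2% of all genes) and for 5 after centring each array on its median (42.2%). Repeat 2 was highest for 4 of the 5 under each of these 3 scalings, against 36.9%, 31.8% and 40.3% of all genes. Among genes above the higher cutoff, values as given, it was highest for 43.3%.

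The BAG proteins, several of them exchange factors of HSP70, were above background in all 6 cases. Bag1 read 8.30, 8.42 and 8.29, Bag4 8.19, 8.26 and 8.31, and Bag6, which guards newly made membrane proteins, 9.72, 9.73 and 9.79. Bag3, induced by stress and acting with Hspb8, read 6.75, 6.91 and 6.91. Bag5 read 6.48, 6.77 and 6.47, with repeat 2 higher by 0.29, the largest range of the group. Bag2 was near background, at 5.11, 5.03 and 5.20.

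Of the heat shock factor genes, Hsf1 had no probe set with 1 symbol and was not read here. Hsf2, the factor tied to development, read 7.54, 7.58 and 7.75 and was highest in repeat 3. Hsf4, known from the lens, was near background at 5.01, 5.05 and 5.28, and so was the germline gene Hsf5 at 4.76, 4.76 and 4.75, whose margin over the cutoff in repeat 1 was 0.045. Hsf2bp, grouped here by its symbol and a partner of Brca2 in meiotic recombination, gave clear signal at 8.73, 8.75 and 8.74. Its SD was 0.012.

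Other genes of the same machinery were read from a list of 32, of which 31 were measured. All 31 were above background and 30 exceeded the higher cutoff; the exception was the lens crystallin Cryaa at 5.22 ± 0.060 (SD, n = 3). Among them were the HSP90 partners Cdc37 (9.82 ± 0.054), Ptges3 (11.45 ± 0.040) and Fkbp4 (10.26 ± 0.079), the mitochondrial HSP90 Trap1 (9.63 ± 0.052) and the ER chaperones Calr (10.89 ± 0.089) and Canx (11.33 ± 0.032). None of the 31 was called in the test of spread that follows. Their median SD was 0.085.

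The spread between repeats was tested for all genes at once. An intercept was fitted with limma, and the variance of each gene was set against limma's prior variance, with Benjamini-Hochberg adjustment over the 13610 genes that exceeded background on any array. No member passed (0 of 89 in the test), against 0.162% of all genes tested (22 genes), and 1 member had an unadjusted p under 0.05 (1.12%), against 5.75% of all genes. That member was Hspe1, with an adjusted p = 0.864 by limma. Next came Dnajb4, Hspb7 and Hspa8, with adjusted p = 0.909, 0.933 and 0.939 by limma. With a prior that was not robust no member, and with a prior without a trend 2 members, had an unadjusted p under 0.05. A p above the threshold does not show that the repeats were equal.

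**Figure D4:**
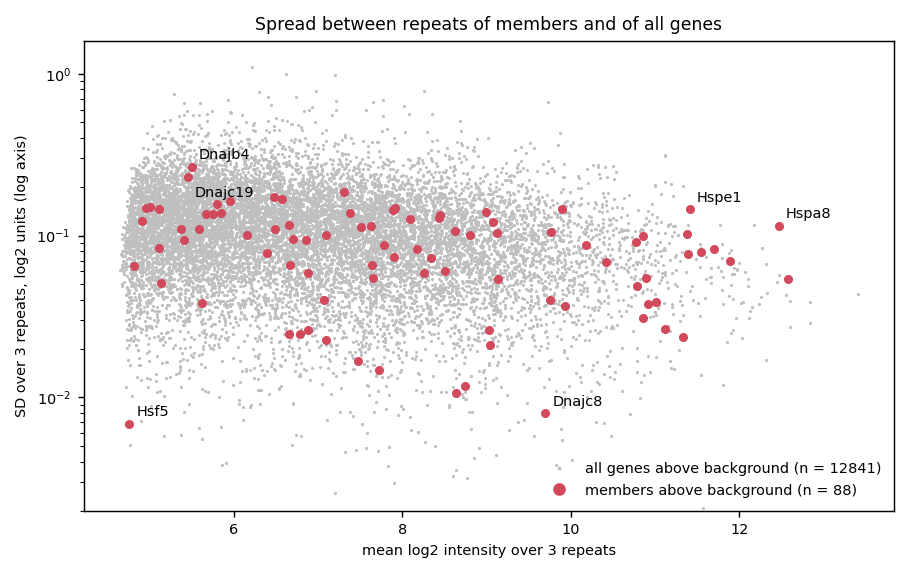
SD over 3 repeats (log axis) against mean log2 intensity for the 88 members above background (red) and all 12841 genes above background (grey). The members lie within the grey cloud; Dnajb4 has the highest SD (0.27) and Hsf5 the lowest (0.0069) among them.

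The members above background had a median SD of 0.087, against 0.101 for all genes above background. Without repeat 2 the members' median was 0.055. That SD rests on fewer arrays and has no value for all genes beside it, so it is not comparable with 0.087. Over all 3 arrays the median SD was 0.068 for the 29 members with a mean log2 above 9, against 0.074 for 1546 genes. For the other 59 members it was 0.101, against 0.106. Within these ranges of level the members and all genes thus lay closer together. By role the median SD was 0.039 for HSP90, 0.063 for CCT, 0.082 for prefoldin, 0.078 for J proteins of classes A and B, 0.101 for class C, 0.113 for HSP70 and HSP110 and 0.108 for the mitochondrial chaperonin. A range under 0.1 was found for 23 members, or 26.1% of the 88, against 18.1% of all genes above background. These shares were not matched for level. A mean log2 above 9 was more frequent among the members (29 of 88) than among all genes above background (1546 of 12841).

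Repeat 2 was highest for 45 of the 88 members (51.1%), against 36.9% of all genes above background, and repeat 1 was lowest for 39 (44.3%), against 33.3%. Repeat 1 was highest for 19 members (all genes 30.0%) and repeat 3 for 24 (33.1%), while repeat 2 was lowest for 20 (34.8%) and repeat 3 for 29 (31.9%). The sizes were small: the median deviation of a repeat from the mean of the others was -0.028, 0.041 and 0.00075 for repeats 1, 2 and 3, against -0.011, 0.0063 and 0.0019 over all genes above background. After quantile normalization repeat 2 was highest for 33 members (37.5%, all genes 31.8%) and repeat 1 lowest for 25 (28.4%, all genes 28.2%). The medians were then 0.0065, -0.0016 and -0.0027 for the members and 0.012, -0.015 and 0.0032 for all genes, so the signs of repeats 1 and 2 turned for both. After median centring repeat 2 was highest for 50 members (56.8%, all genes 40.3%) and repeat 1 lowest for 49 (55.7%, all genes 42.2%), with medians of -0.061, 0.058 and 0.016 for the members and -0.044, 0.024 and 0.017 for all genes. Among the 69 members above the higher cutoff, repeat 2 was highest for 40 (58.0%) and repeat 1 lowest for 35 (50.7%), against 43.3% and 39.5% of the genes above it. The fibroblast markers were also highest in repeat 2, where 8 of the 9 above background peaked with a median deviation of 0.50, and so were 5 of 7 ES cell markers and 16 of 31 other chaperone genes; their part in the members' values was not tested.

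Repeat 3 was lowest for 8 of the 11 HSP70 and HSP110 genes above background, against 31.9% of all genes, with a median deviation of -0.14. The count was 9 after quantile normalization (32.7% of all genes) and 8 after median centring (27.8%). Of those 8, Hspa1a, Hspa2, Hspa12a and Hspa4l were not above the higher cutoff on all arrays. Among the 7 genes of the family that were, repeat 3 was lowest for 4 (32.5% of all such genes), with a median deviation of -0.070. The deviations of repeat 3 were -0.28 for Hspa1a, -0.25 for Hsph1, -0.23 for Hspa2, -0.22 for Hspa12a, -0.17 for Hspa5, -0.14 for Hspa4l, -0.11 for Hspa9, -0.070 for Hspa13, -0.062 for Hspa8 and -0.053 for Hspa4, while Hspa14 went the other way (0.13). None of these genes was called in the limma test, and the group is singled out after its values were seen. The CCT genes were highest in repeat 2 in 6 of 8 cases, against 36.9% of all genes. Among all genes above the higher cutoff, as these 8 were, that share was 43.3%. The CCT count was 3 of 8 after quantile normalization (31.8% of all genes) and 6 of 8 after median centring (40.3%). CCT and prefoldin were likewise singled out after their values were seen.

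**Figure D5:**
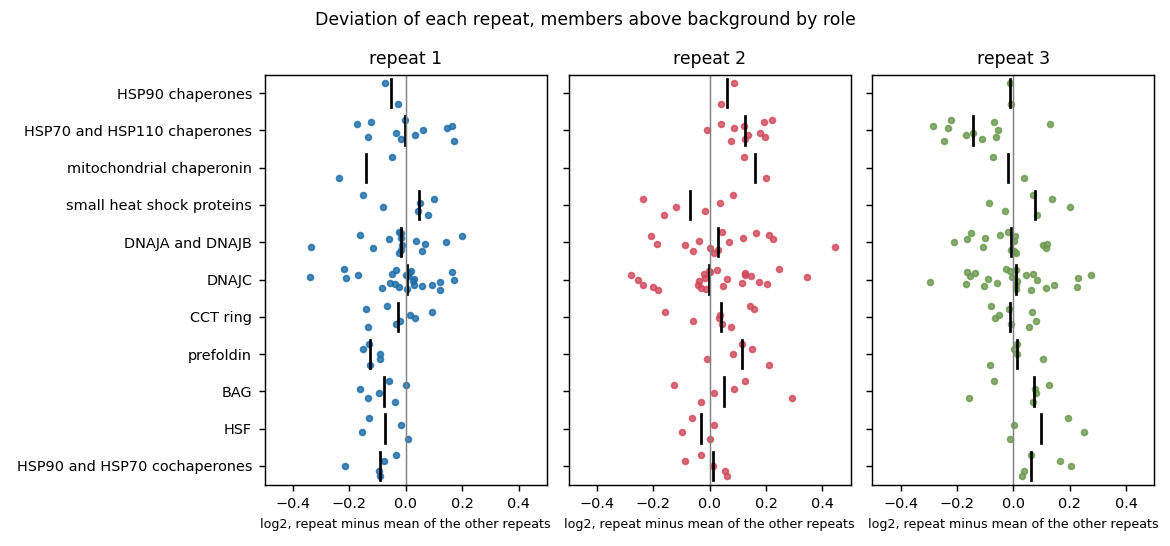
Deviation of each repeat from the mean of the other repeats (log2) for the 88 members above background, 1 point a gene, by role (bars: median of the role group). Most HSP70 and HSP110 points lie left of 0 in repeat 3, and all prefoldin points lie left of 0 in repeat 1.

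Members whose promoter windows hold a unit pair were set beside the others. Of the 21, 19 were above background, with median deviations of -0.026, 0.045 and -0.029 in repeats 1, 2 and 3. The 53 members above background with a promoter window but no pair had -0.034, 0.042 and 0.0089. In repeat 3 Hspa1a and Hsph1 were lower than the other repeats, as given above, while Hspb1 (0.069), Bag3 (0.077) and Hspb6 (0.20) were higher. Hspd1 and Hspe1, which share 1 stretch, deviated by -0.072 and 0.036 in repeat 3. These groups were chosen by letters in the promoter and no test was made.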

How the data were processed

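The deposited table holds probe set intensities on a linear scale, 1 column for each of 3 arrays, as the range of the values shows. Per the submitters' processing notes the software was GCOS 1.4. How background was corrected, arrays were normalized and probes were summarised is not given in the sources used here and could change the size of a difference. Intensities were taken to log2 (no value lay below the floor of 1) and used as given. Of 26730 probe sets, 20764 had 1 symbol, 1419 several and 4547 none listed. In 9 of those with several, a symbol matches the rule, which need not be that of a member. Only probe sets with 1 symbol were used, averaged per gene. All 99 members matched RefSeq (GRCm38.p6) by gene ID, with no symbol changed. The array annotation can be old.

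Of the 1184 receptor genes that set the background, 46 exceeded it on all 3 arrays. The variance test used limma 3.58.1 in R 4.3.3 (trended, robust prior; 2 and 9.89 degrees of freedom; adjusted p threshold 0.05) and was tested on simulated data. Tables and promoter windows were handled with pandas 2.3.3 and numpy 2.4.6 (Python 3.11.15). Members, role groups, lists and tests were chosen with earlier results of these data known. All members could be named; values on each array were given by role, for the largest and smallest range and for the 10 largest deviations of a repeat. Protein sequences were not used here.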

Additional observations from a re-analysis of the deposited data

How the results depend on the processing

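With 3 arrays of 1 group, spread rests on few values and detection near the cutoffs on small margins. Of the 88 members above background, 74 remained at the 99th percentile of the receptor genes and 69 with the other silent families; 89 passed when 2 of 3 arrays sufficed, and 88 after quantile normalization, median centring or taking the highest probe set. Leaving out 1 repeat gave 88 to 89 members; without repeat 2, Hspb7 passed. The limma variance test called 0 members in all 10 alternatives, with 0 to 3 members at an unadjusted p under 0.05 and a lowest adjusted p from 0.692 to 0.971. Few genes of any kind were called, from 0 of 13537 without repeat 1 to 42 of 13610 after median centring. The absence of calls is therefore not particular to the members. The median SD ranged from 0.055 to 0.086 when 1 repeat was left out (0.055 without repeat 2), where each SD rests on fewer arrays. With all arrays it was 0.073 after quantile normalization and 0.094 after median centring. With the highest probe set, the mean level moved by more than its SD for 4 members: Dnaja1 (10.12), Hsp90aa1 (12.86), Hspa8 (12.72) and Hspd1 (12.03). Counts of members by highest or lowest repeat under other scalings, and among genes above the higher cutoff, were added after seeing the data. Repeat 1 was lowest for 39 members as given (44.3%), 25 after quantile normalization (28.4%) and 49 after median centring (55.7%), and for 33.3%, 28.2% and 42.2% of all genes. No paired analysis was possible because the series has 1 group.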
